A study of Mus musculus with 6 samples.

Results

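Genes of nucleic acid sensing other than the deleted one were followed in cGAS-/- neutrophils with and without lipopolysaccharide (LPS), the endotoxin of Gram-negative bacteria. They were chosen by symbol, as the gene of cGAS itself (Cgas), the DNA sensors Aim2, Ifi204 and Zbp1, and the RNA sensors Ifih1 and Dhx58. With them were the nuclease Trex1, the deoxynucleotide hydrolase Samhd1, the adaptor Mavs and the kinase Tbk1. All 10 symbols were found among the 38739 genes of the table, and each was detected, as were 23049 genes in all. Total RNA of peritoneal neutrophils from cGAS knockout mice (strain label C57B/L6) was sequenced in 3 samples kept in medium alone and 3 samples kept with LPS for 2 h. Every sample, the controls included, lacked cGAS, and no wild-type sample was measured, so the comparison gives the response to LPS in cells without cGAS and not the effect of losing cGAS. Per the methods of the study, the mice were male, 8 weeks old and on a C57BL/6J background, and the cells were washed from the peritoneum 2 h after an injection of 3% thioglycolate. The labels give an LPS dose of 500 ng/mL, while the methods give a lower dose for the sequenced cells. Nothing states that the 3 samples of a group came from separate mice, so the p values measure the spread between these samples, which may be technical.

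Cells detect foreign or misplaced nucleic acids with sensors that differ in ligand and place. cGAS binds double-stranded DNA in the cytosol and makes the messenger cGAMP, which activates STING. AIM2 also binds DNA, but assembles an inflammasome that activates caspase-1, and IFI204, a member of the interferon-inducible IFI200 family, is a DNA-binding protein linked to STING. ZBP1 binds nucleic acids in the Z form and can start necroptosis. MDA5, encoded by Ifih1, and LGP2, encoded by Dhx58, are helicases of the RIG-I family that bind double-stranded RNA, and MDA5 signals through the mitochondrial adaptor MAVS. Signals from STING and MAVS converge on the kinase TBK1, which phosphorylates IRF3. TREX1 degrades DNA in the cytosol and SAMHD1 hydrolyses deoxynucleotides, and loss of either enzyme causes interferon disease in people. LPS itself is detected by TLR4, whose adaptor TRIF also activates TBK1.

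Promoter sequences of RefSeq (build GRCm38.p6) were found for 7 of the 10 members, as 8 windows of 250 bases before and 50 bases after a start site, since Trex1 has 2 starts. The upstream bases are shown for Tbk1 and Samhd1, which showed the largest differences in each direction, and short stretches are shown for Ifih1 and Trex1, where an immune-related motif was found. Capitals mark motif matches. In Tbk1 (chr10:121586795-121587044, minus strand) they are GC boxes, in Samhd1 (chr2:157135097-157135346, minus strand) a GAS element followed by a GC box, in Ifih1 (chr2:62646206-62646235, minus strand) an ISRE, and in Trex1 (chr9:109059944-109059973, minus strand) a kappaB motif.
Tbk1: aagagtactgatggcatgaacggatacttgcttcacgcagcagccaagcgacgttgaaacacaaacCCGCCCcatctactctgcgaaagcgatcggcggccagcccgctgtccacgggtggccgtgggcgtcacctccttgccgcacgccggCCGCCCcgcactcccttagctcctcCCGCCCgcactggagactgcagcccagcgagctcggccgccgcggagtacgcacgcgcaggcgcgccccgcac
Samhd1: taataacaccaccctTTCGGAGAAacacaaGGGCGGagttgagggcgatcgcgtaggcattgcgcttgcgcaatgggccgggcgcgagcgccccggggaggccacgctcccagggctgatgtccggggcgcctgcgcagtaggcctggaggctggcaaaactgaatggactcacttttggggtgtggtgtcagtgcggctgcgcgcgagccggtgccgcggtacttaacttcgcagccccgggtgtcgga
Ifih1: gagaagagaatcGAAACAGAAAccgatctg
Trex1: gcatGGGGGCCTCCaagcccccacgctgtc

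The motifs were searched by their letters on both strands. The ISRE, the element of interferon-stimulated genes (a pair of GAAA repeats with 2 bases between them), was in 3.44% of 32851 promoter windows of the same length, and among the members it was found in Ifih1 alone, at bases 33 to 42 after the start. The GAS element, bound by STAT dimers (TTCNNNGAA), was in 8.30% of windows and was found in Samhd1 at bases -235 to -227. The kappaB motif was in 5.89% of windows and was found before 1 of the Trex1 starts, at bases -246 to -237. GC boxes (GGGCGG) were in 35.7% of windows and were found in Aim2, Mavs (3 matches), Samhd1, Tbk1 (3 matches) and the other Trex1 start. No AP-1 motif (TGANTCA, 7.81% of windows) or TATA box (TATAAA, 13.6%) was found in these 8 windows, and the Cgas window held none of the 6 motifs. The motifs do not overlap one another in these windows. A match shows letters in a window and not a bound site.

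The values are TPM (transcript abundance per length, as a share of all transcripts of the sample) made by the authors and apparently scaled by 1 factor per sample. They are thus relative to transcript length but carry no read counts, and the depth is unknown. Their sums ran from 603599 to 713384 in the untreated samples and from 404675 to 465904 with LPS. Protein-coding genes took 21.6% to 29.0% of the sum without LPS and 50.6% to 60.0% with it. Their summed value was 0.49 higher on the log2 scale with LPS, and differences are therefore also given on a protein-coding scale, after division of each sample by its protein-coding sum. Of 15 neutrophil markers 13 were in the table, with summed values of 9660 to 28415 without and 16033 to 54611 with LPS. S100a8 and S100a9 made up most of this sum, Elane was at 0 in every sample, and the median difference of the list was -0.28. The receptor gene Cxcr2 was called lower, from a mean of 86.5 to 13.1, and Csf3r and Ltf were lower in each LPS sample. The second sample of each group stood apart, with the highest neutrophil sum and the lowest B cell sum of its group (281 against at least 1029 without LPS, 262 against at least 726 with it).

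With LPS, transcripts of the kinase TBK1 and of the RNA sensor MDA5 were higher by a factor of 7.42 and 5.70, and these were the only 2 of the 10 members that rose at the limits of the study, an unadjusted p under 0.01 and a log2 difference over 2 (limma). No member fell at these limits. Of all genes tested, 1.69% were called higher and 1.31% lower, and of the protein-coding genes 2.31% and 0.353%. At these same limits, limma-voom on the same values called 2 members higher (Ifih1 and Tbk1) and 0 lower, beside 1552 genes higher and 177 lower of 23049. At an unadjusted p under 0.05 without a limit on the difference, limma without voom had 3 members higher and 2 lower, beside 10.3% and 6.66% of all genes. At an adjusted p under 0.05 (limma), Tbk1 alone was called, beside 0.894% of all genes higher and 0.946% lower. This call was lost with the replicate block (adjusted p = 0.0925). It was also lost when untreated replicate 3 (0.0569), LPS replicate 1 (0.145), LPS replicate 2 (0.0634), LPS replicate 3 (0.154) or replicate 2 of both groups (0.0883) was left out. Over all genes, those under 0.05 fell from 424 to 16 with the block. They fell to 145, 11, 28, 22 and 18 with these samples left out, in the same order. The log2 difference of Tbk1 was 2.49 to 2.79 in these fits. With the limit on the log2 difference set at 1, 2 members were called higher and 2 lower (Trex1 and Samhd1), beside 3.62% and 2.92% of all genes. The LPS samples lay above all untreated samples for 4 members (Ifi204, Zbp1, Ifih1 and Tbk1), against 13.1% of genes tested and 18.0% of protein-coding genes, and below them for 3 (Aim2, Trex1 and Samhd1), against 9.75% and 8.71%. The median log2 difference of the 10 members was 0.39, while that of all genes tested was 0.01 and that of protein-coding genes 0.04. These backgrounds include many genes with values near 0, whose differences on this scale are small. Among genes with a mean value of at least 1, the median was 0.54 for the members that passed. It was 0.13 for all such genes and 0.37 for the protein-coding ones.

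**Figure D1:**
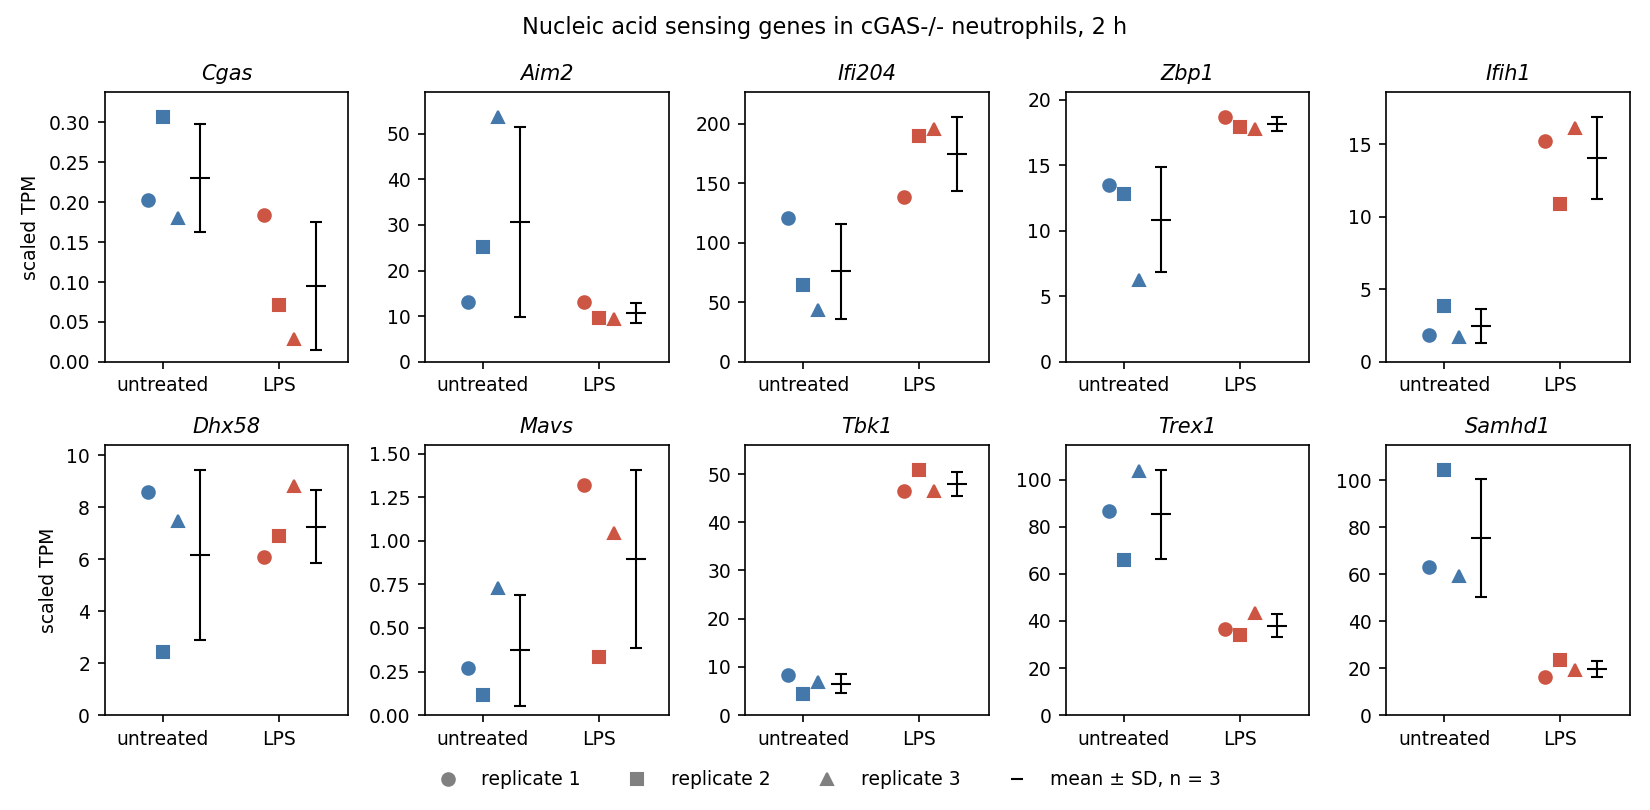
Deposited value (scaled TPM, linear axis from 0, one scale per panel) of each of the 10 members in the 3 untreated and 3 LPS samples, as points (one shape per replicate number) with the group mean and SD. Tbk1 lies between 4.37 and 8.26 without LPS and between 46.5 and 50.9 with it, while Samhd1 and Trex1 lie lower in every LPS sample than in any untreated one.

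The deposited levels spanned a wide range. They are per length, but if they are averages over transcripts, genes with many transcripts (33 for Tbk1, 18 for Mavs) read lower than genes with few (2 for Trex1), so the order describes the values of the table and not transcript abundance. Without LPS, the highest means were those of Trex1 (85.4), Ifi204 (76.2) and Samhd1 (75.6), whose samples overlapped. Below them came Aim2 (30.7), Zbp1 (10.8), Tbk1 (6.47), Dhx58 (6.16) and Ifih1 (2.47), each overlapping its neighbour in this order except that no Aim2 sample reached the Samhd1 range. Mavs (0.372) and Cgas (0.230) were lowest, overlapped each other, and lay below every sample of Ifih1. With LPS the order was Ifi204 (175), Tbk1 (48.0), Trex1 (38.0), Samhd1 (19.7), Zbp1 (18.1), Ifih1 (14.1), Aim2 (10.7), Dhx58 (7.26), Mavs (0.897) and Cgas (0.0946). In that order, Samhd1 overlapped Zbp1 and Ifih1 overlapped Aim2, and the other neighbours were separate.

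Among the DNA sensors, the deleted gene was checked first. Cgas (ENSMUSG00000032344, chromosome 9, 78337802 to 78350535 on GRCm39) was at 0.203, 0.307 and 0.180 without LPS and at 0.184, 0.0713 and 0.0286 with it. It was the lowest member in both groups but not at 0, and the groups overlapped. Which part of the gene is deleted is not given in the sources used here, and 35.9% of the 31-base words of its transcripts also occur in other genes, so these values do not show what transcript remains. The log2 difference was -0.17 (SE 0.087, limma adjusted p = 0.383).

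Aim2, the sensor of the DNA inflammasome (chromosome 1, 173178445 to 173293930), was at 13.2, 25.2 and 53.7 without LPS and at 13.1, 9.71 and 9.31 with it. Untreated samples differed among themselves by more than the gap to LPS, and the groups were separated only by the narrow margin between 13.2 and 13.1. The mean was 30.7 ± 20.8 (SD, n = 3) against 10.7 ± 2.09, a log2 difference of -1.23 (95% interval -2.53 to 0.06, limma adjusted p = 0.317), which did not pass the test. On the protein-coding scale it was -1.69 (adjusted p = 0.229).

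Ifi204 lies near Aim2 in the IFI200 cluster (ENSMUSG00000073489, chromosome 1, 173574859 to 173594610). Its values were 121, 64.3 and 43.5 without LPS and 139, 190 and 196 with it, so every LPS sample was higher, although the first untreated sample came close. The means of 76.2 ± 40.0 and 175 ± 31.4 (SD, n = 3) gave a log2 difference of 1.30 (95% interval 0.23 to 2.37, limma adjusted p = 0.207). On the protein-coding scale it was 0.81 (adjusted p = 0.423) and the groups overlapped. Of its 31-base words, 34.5% also occur in other genes, mostly of the same family, so reads may be divided among relatives.

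Of 10 other IFI200 family genes in the table, 1 was higher in each LPS sample, as Ifi204 was, and 9 overlapped between groups. The gene that was higher, Ifi205, was at 7.07, 4.32 and 4.60 without LPS and at 34.5, 13.6 and 27.8 with it, a log2 difference of 1.99 (limma adjusted p = 0.082), under the limit. Among those that overlapped, Ifi211 was at 105.7, 27.6 and 57.2 without LPS and at 85.4, 22.5 and 57.7 with it. In 7 of the 10, Ifi211 and Ifi205 included, the second sample was the lowest of both groups, as it was for the B cell marker sum. In the LPS group the second sample was lowest in all 10. In the untreated group it was not lowest in 3, since Ifi207 was highest there (33.8, 38.6 and 26.4) and Ifi206 and Ifi208 were lowest in the third sample. The family genes named here were chosen after their values were seen. Their relation to B cell RNA was not tested, and in bulk samples fewer cells of a type and less RNA per cell cannot be told apart.

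**Figure D2:**
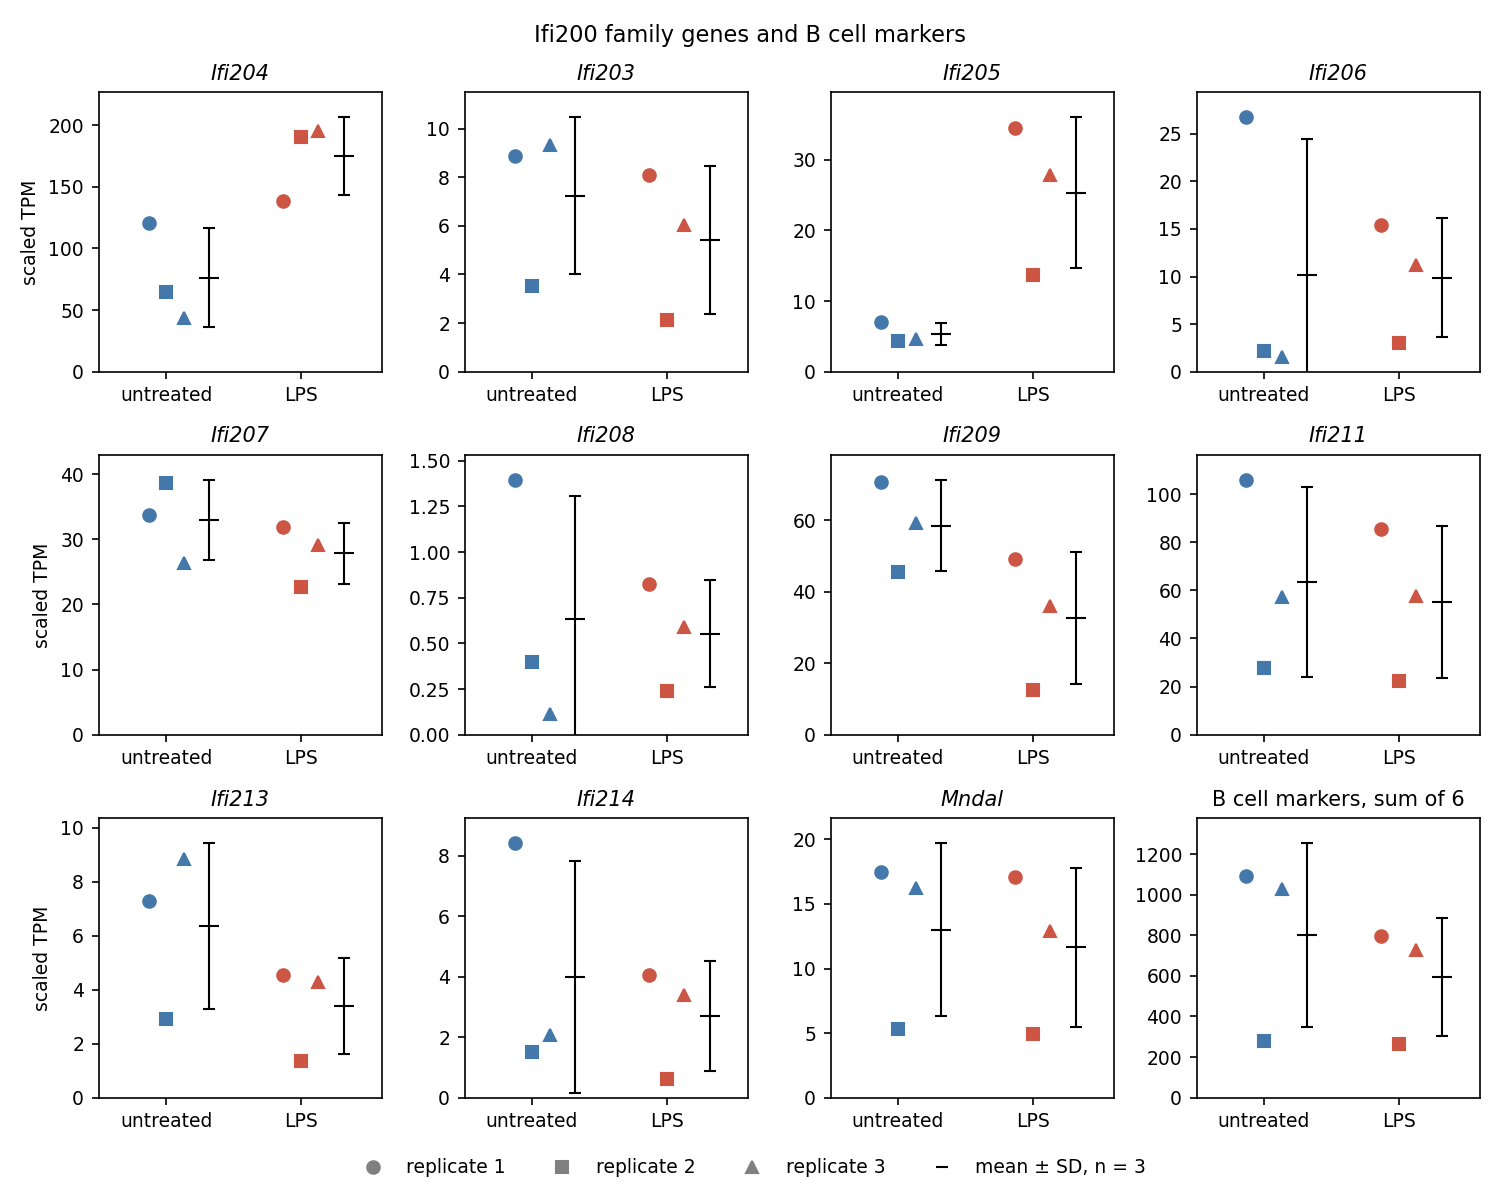
Deposited value (scaled TPM, linear axis from 0, one scale per panel) of Ifi204, the 10 other IFI200 family genes of the table and the sum of 6 B cell markers in the 3 untreated and 3 LPS samples, as points with the group mean and SD (bars of Ifi206 and Ifi208 end at the axis where they reach below 0). Ifi204 and Ifi205 are higher in each LPS sample and the other 9 genes overlap, and the square of replicate 2 is the lowest point of both groups in 7 of the 10 other genes.

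Zbp1 (chromosome 2, 173033815 to 173060724), the sensor of Z-form nucleic acids, had 13.5, 12.8 and 6.24 without LPS and 18.7, 17.9 and 17.8 with it. Each LPS sample was above each untreated one, and the LPS samples lay close together, 18.1 ± 0.515 (SD, n = 3) against 10.8 ± 4.01. The log2 difference of 0.76 (95% interval -0.13 to 1.64, limma adjusted p = 0.352) did not pass the test, and on the protein-coding scale it was 0.30 with overlapping groups.

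Of the other 21 DNA sensors and cofactors in the table (25 written down), 1 rose, Xrcc5, which encodes the Ku80 subunit of the Ku DNA end-binding complex. Its mean was 1.18 ± 1.33 without and 10.9 ± 2.07 with LPS, a log2 difference of 2.60 (limma adjusted p = 0.0577), and 2.31 on the protein-coding scale, where it was also called. None of the 21 fell, 4 were higher in each LPS sample, against 18.0% of protein-coding genes, and 17 overlapped. At an unadjusted p under 0.05, 4 were higher and 0 lower, beside 10.3% and 6.66% of all genes. The median difference was 0.28 on the deposited and 0.03 on the protein-coding scale.

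Among the RNA sensors, Ifih1 rose. The gene of MDA5 (chromosome 2, 62425714 to 62476607) measured 1.88, 3.84 and 1.69 without LPS against 15.3, 10.9 and 16.1 with it. The lowest LPS sample was thus well above the highest untreated one, and the means were 2.47 ± 1.19 and 14.1 ± 2.83 (SD, n = 3). The log2 difference was 2.15 (SE 0.36, 95% interval 1.27 to 3.04, limma adjusted p = 0.0509), just past the limit of 2, and above that of 98.0% of genes tested. On the protein-coding scale it was 1.77 (adjusted p = 0.0911), which is under the limit, with the groups still separate. Without the third untreated sample it was 1.99 and not called. This is the member whose promoter window holds the ISRE printed above.

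Dhx58, which encodes the regulatory helicase LGP2 (chromosome 11, 100585710 to 100595097), showed no separation. Its values were 8.58, 2.42 and 7.48 without LPS and 6.09, 6.88 and 8.81 with it, and only the second untreated sample lay apart. The log2 difference of 0.33 (95% interval -0.83 to 1.48, limma adjusted p = 0.717) changed sign on the protein-coding scale (-0.11). The interval of the difference spans both directions. RIG-I, listed under its older symbol Ddx58 and named after its values were seen, averaged 10.9 without and 8.28 with LPS, a log2 difference of -0.14 (adjusted p = 0.899).

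None of the other 19 RNA sensors and cofactors in the table (23 written down) was called in either direction by limma. At an unadjusted p under 0.05, 6 were higher and 0 lower, beside 10.3% and 6.66% of all genes, and 8 were higher in each LPS sample, against 18.0% of protein-coding genes. The median difference was 0.79 on the deposited and 0.36 on the protein-coding scale. The largest difference was that of Zc3hav1, which encodes the CpG-binding antiviral protein ZAP, with means of 10.3 and 27.2 and a log2 difference of 1.35 (adjusted p = 0.0914).

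Downstream of the RNA sensors, the adaptor Mavs (chromosome 2, 131075442 to 131096740) was low in both groups. Values of 0.272, 0.117 and 0.727 without LPS and 1.32, 0.331 and 1.04 with it overlapped, and the log2 difference was 0.45 (95% interval -0.36 to 1.27, limma adjusted p = 0.551), or 0.30 on the protein-coding scale. At such levels a log2(value + 1) difference understates the ratio of the means, 0.372 ± 0.317 and 0.897 ± 0.510 (SD, n = 3).

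Tbk1 (chromosome 10, 121382360 to 121422848), the kinase shared by the DNA and RNA routes, showed the largest difference of the members. It was at 8.26, 4.37 and 6.78 without LPS and at 46.6, 50.9 and 46.5 with it. The LPS samples were close to one another and far above the untreated ones, with means of 6.47 ± 1.96 and 48.0 ± 2.50 (SD, n = 3). The log2 difference of 2.75 (SE 0.31, 95% interval 1.98 to 3.51, limma adjusted p = 0.0212) was above that of 99.1% of genes tested. On the protein-coding scale it remained past the limits at 2.29 (adjusted p = 0.0451).

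Several genes that act with TBK1 also differed between the groups. Ikbke, the gene of the related kinase IKKε, was at 18.3, 42.5 and 9.89 without LPS and at 159, 412 and 219 with it, a rise of 3.55 on the log2 scale (SE 0.62, limma adjusted p = 0.0534). Irf5, an interferon regulatory factor, was at 1.02, 1.87 and 3.60 against 25.6, 23.3 and 36.8, a rise of 3.28 (SE 0.41, adjusted p = 0.0256). Both were higher in each LPS sample, Ikbke by a wide margin and with more scatter, and both were called on the protein-coding scale (3.07 and 2.89).

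Of the 3 scaffold proteins that bind TBK1, the transcripts did not move one way. Tbkbp1, which encodes SINTBAD, was at 9.48, 9.53 and 10.2 without LPS and at 0.98, 1.27 and 1.27 with it, and it fell by 2.31 on the log2 scale (SE 0.27, limma adjusted p = 0.0217), and by 2.67 on the protein-coding scale. Tank and Azi2, named after their values were seen, had log2 differences of 1.62 (adjusted p = 0.0832) and -1.16 (adjusted p = 0.129) and did not pass the limits. On the protein-coding scale these differences were 1.22 and -1.62, also under the limits. On both scales every LPS sample was higher than any untreated one for Tank and lower for Azi2. Irf3, the main substrate of TBK1 in this route and also named after its values were seen, averaged 6.85 without and 6.34 with LPS, a log2 difference of -0.09 (adjusted p = 0.882). On the protein-coding scale the Irf3 difference was -0.52 (limma adjusted p = 0.425). Every LPS sample was then lower than any untreated one, as in 13.8% of all genes on that scale. Of the 19 adaptors, kinases and factors in the table (25 written down), 2 thus rose and 1 fell, beside 1.69% and 1.31% of all genes. The others did not pass. In 7 every LPS sample was higher and in 4 lower, against 18.0% and 8.71% of protein-coding genes, and 8 overlapped. At an unadjusted p under 0.05 (limma), 6 were higher and 3 lower, beside 10.3% and 6.66% of all genes. The median difference of 0.21 turned to -0.23 on the protein-coding scale.

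**Figure D3:**
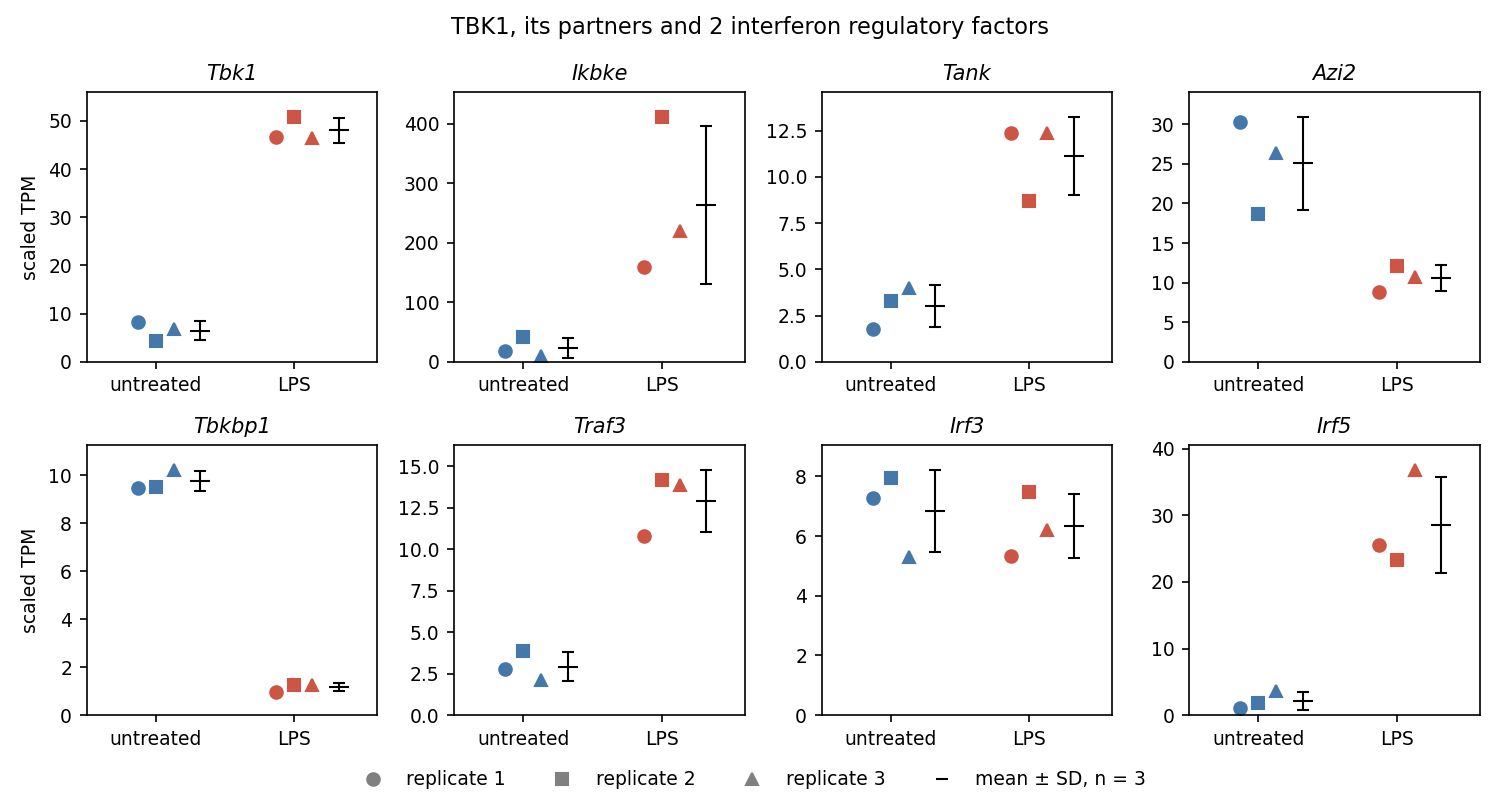
Deposited value (scaled TPM, linear axis from 0, one scale per panel) of Tbk1, Ikbke, the scaffolds Tank, Azi2 and Tbkbp1, the ligase Traf3, Irf3 and Irf5 in the 3 untreated and 3 LPS samples, as points with the group mean and SD. Tbk1, Ikbke, Tank, Traf3 and Irf5 are higher in every LPS sample. Azi2 and Tbkbp1 are lower in each, Tbkbp1 from at least 9.48 to at most 1.27, while Irf3 overlaps between groups.

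The nuclease TREX1 and the deoxynucleotide hydrolase SAMHD1 had lower transcript values in every LPS sample than in any untreated one. Neither passed the limits on the deposited scale. Samhd1 (chromosome 2, 156939453 to 156977187) was at 63.0, 104.6 and 59.1 without LPS and at 16.3, 23.5 and 19.3 with it, 3.84-fold lower in the mean (75.6 ± 25.2 against 19.7 ± 3.61, SD, n = 3). The lowest untreated sample was well above the highest LPS sample. The log2 difference was -1.86 (SE 0.34, 95% interval -2.69 to -1.02, limma adjusted p = 0.0579), inside the limit of 2, so it was not called. On the protein-coding scale it was -2.33 (adjusted p = 0.0202) and Samhd1 was called lower, as it was after centring on the median log2 value and without the third untreated sample (-2.01).

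Trex1 (chromosome 9, 108887001 to 108888802) was at 86.6, 66.0 and 103.6 without LPS and at 36.6, 34.1 and 43.3 with it. The groups did not overlap, and the mean was 2.25-fold lower (85.4 ± 18.8 against 38.0 ± 4.78, SD, n = 3). The log2 difference of -1.13 (SE 0.30, 95% interval -1.85 to -0.41, limma adjusted p = 0.121) was under the limit on this scale and at -1.61 (adjusted p = 0.110) on the protein-coding scale. All 31-base words of Trex1 transcripts (100%) also occur in Atrip, whose transcripts run through it. Reads of Trex1 thus cannot be told from reads of Atrip by these words, and the reverse share was not computed. Atrip was listed at 0.281 to 2.05 without and 0.729 to 0.924 with LPS.

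Of the other 12 nucleases in the table (21 written down), none was called in either direction by limma, and at an unadjusted p under 0.05, 2 were higher and 1 lower, beside 10.3% and 6.66% of all genes. Pld4, which encodes an exonuclease of endosomes that cuts single-stranded nucleic acids, had the largest difference, from a mean of 7.78 to 1.92 (log2 difference -1.63, adjusted p = 0.0833), and it was called lower on the protein-coding scale. The median difference of this list was 0.09, and -0.02 on the protein-coding scale.

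**Figure D4:**
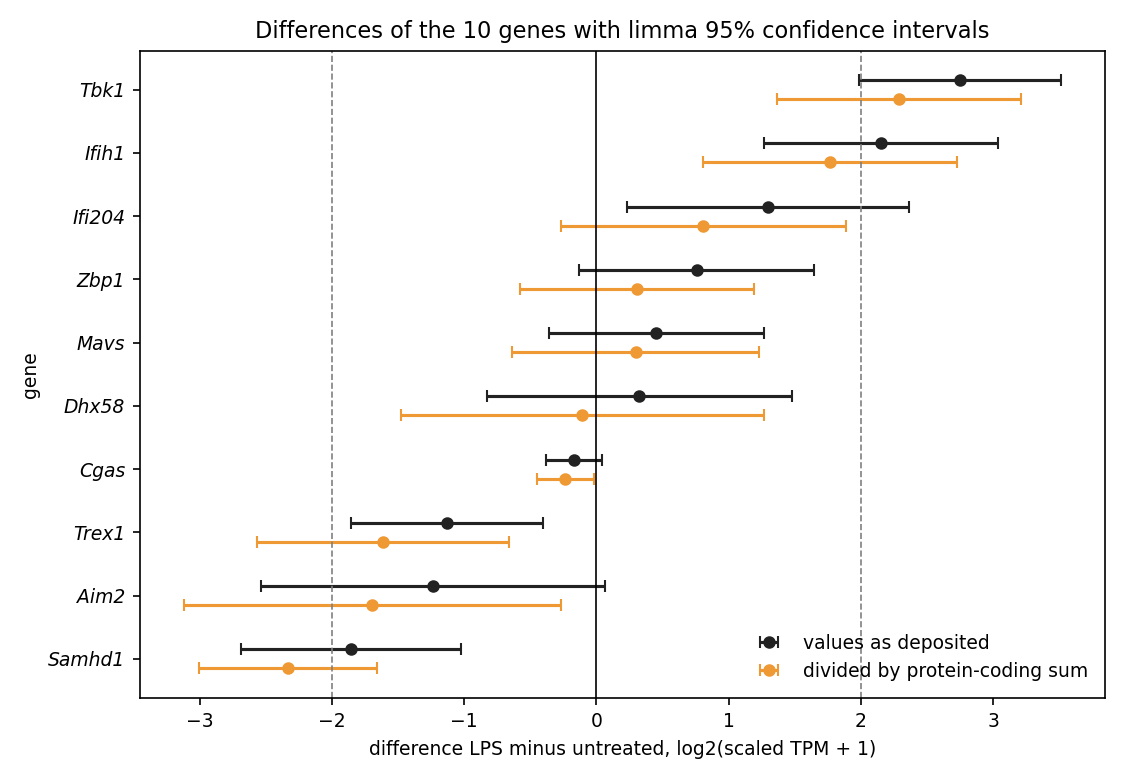
Log2 difference (LPS minus untreated, log2(value + 1)) of each of the 10 members with its 95% interval from limma, on the deposited scale and after division by the protein-coding sum. Tbk1 stands past 2 on both scales, Ifih1 on the deposited scale alone and Samhd1 past -2 on the protein-coding scale alone.

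The protein-coding scale moved all members down. On it, 1 member was called higher (Tbk1) and 1 lower (Samhd1), while 0.959% of genes tested were called higher and 2.24% lower. The LPS samples were then above all untreated samples for 2 members and below for 4, against 8.67% and 13.8% of genes tested. The fourth was Cgas, with a log2 difference of -0.23. The median of the members was 0.10. Over all genes, 56.4% of the calls were higher on the deposited scale (389 higher, 301 lower) and 30.0% on the protein-coding scale (221 higher, 516 lower).

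Interferon-response genes are induced by the signals these sensors send. Of 17 in the table (28 written down), 1 rose, Cxcl10, which encodes a chemokine for T cells, with a mean of 5.01 ± 3.66 without and 36.5 ± 18.8 with LPS (log2 difference 2.70, SE 0.66, limma adjusted p = 0.104). Cxcl10 was not called on the protein-coding scale, where 0 of the 17 were, nor when untreated replicate 2 or 3 or LPS replicate 1 or 3 was left out. The median difference of 1.05 (0.71 on the protein-coding scale) was the highest of the 5 lists. In each LPS sample 5 genes were higher, against 13.1% of all genes and 18.0% of protein-coding genes, and 12 overlapped. At an unadjusted p under 0.05 (limma), 5 were higher and 0 lower, beside 10.3% and 6.66% of all genes. Ifnb1, the gene of interferon beta, was listed at 0 in the 3 untreated samples and at 2.15, 0 and 0.95 with LPS, and Isg15 averaged 181 and 565 (log2 difference 1.86, adjusted p = 0.187), both named after their values were seen.

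Together the 5 lists held 122 genes, of which 88 were in the table. The other 34, among them the gene of STING, were not in it and were not analysed here. All of these lie on chromosomes 14 to 19 or X, and their absence does not show that they were not expressed. Of the 88, 4 rose (Xrcc5, Ikbke, Irf5 and Cxcl10), 1 fell (Tbkbp1) and the others did not pass, beside the shares of 1.69% and 1.31% for all genes given above. In 27 of the 88 every LPS sample was higher, in 6 every LPS sample was lower, and 55 overlapped, against 13.1% of all genes and 18.0% of protein-coding genes wholly higher and 9.75% and 8.71% wholly lower. The median difference was 0.49 on the deposited and 0.17 on the protein-coding scale.

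**Figure D5:**
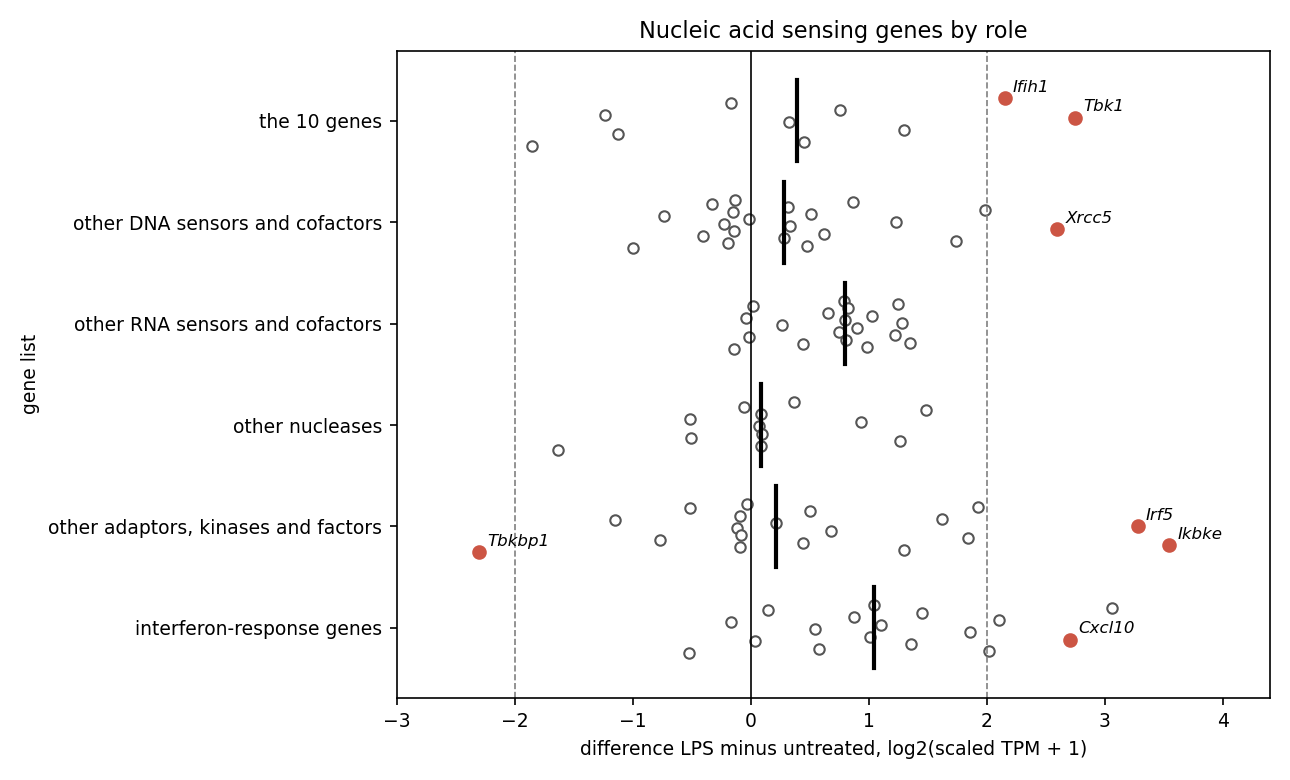
Log2 difference (LPS minus untreated) of each of the 10 members (top row) and each gene of the 5 lists, one point per gene in one row per list, with a black bar at each median, dashed lines at the limit of 2 in either direction and filled points for genes past the limits of the study. In the 5 lists, 4 filled points lie to the right and 1 to the left of 0, and the interferon-response row lies furthest to the right with a median of 1.05.

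Markers of other cells moved with some of these values. The summed macrophage and monocyte markers (9 of 13 in the table) were 171 to 201 without and 270 to 417 with LPS, and the dendritic cell markers (8 of 8) were 17.4 to 64.8 and 69.9 to 181.6, so both sums were higher in each LPS sample, as Tbk1, Ifih1, Ifi204 and Zbp1 were. The sums rest on few genes. Cd68 made up most of the macrophage sum (mean 166 and 305) and C1qb was called higher, while Mrc1 and Ccr2 were lower in each LPS sample. Ccr7 and Itgax made up most of the dendritic cell sum, while Siglech was lower in each LPS sample and Xcr1 had a mean of 2.65 without and 1.12 with LPS. B cell markers (6 of 8) were 281 to 1093 and 262 to 796, T and NK cell markers (9 of 9) 15.7 to 18.4 and 7.68 to 20.2, mast cell and eosinophil markers (7 of 9, Epx at 0) 6.59 to 41.4 and 5.77 to 50.1, and mesothelial and stromal markers (7 of 8) 0.641 to 2.76 and 1.12 to 1.58, all overlapping. The part of other cells in the members' differences was not tested. Without the second sample of either group, 2 members were again called higher, Ifih1 and Tbk1, and 0 lower, and the median difference of the members was 0.22.

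The genes whose values ran most like those of a member over the 6 samples were taken from all protein-coding genes. With Tbk1 they were Casp4, which encodes the caspase that detects cytosolic LPS (Pearson r = 0.997), and Mif4gd (r = 0.997). With Ifih1 they were Grsf1 and Pcsk4 (both r = 0.997), with Samhd1 Trmt1l (r = 0.997) and Olfr57 (r = 0.996), and with Trex1 Armc2 and Hdac1 (both r = 0.996). Zbp1 ran most like Psma6 (r = 0.998) and Tomm34 (r = 0.994), Ifi204 like Sdf4 (r = 0.992) and Ppp4c (r = 0.985), and Aim2 like Zfp109 (r = 0.995) and Ptdss1 (r = 0.991). These values describe 6 samples that share the contrast between 2 groups, and any gene with a similar contrast and little scatter within groups reaches a high r.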

How the data were processed

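RNA of 3 untreated and 3 LPS samples of cGAS-/- peritoneal neutrophils was compared, grouped by the treatment labels. Per the study's methods and the labels, the authors aligned the reads with STAR to GRCm39, quantified them with Kallisto and normalized them with edgeR. The annotation release is not given in the sources used here. The deposited values appear to be TPM divided by 1 factor per sample. They are taken to be averaged over a gene's transcripts, which could not be checked, and the depth is unknown. The table covers part of the genome.

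Here the 15690 genes at 0 in every sample were left out, and limma 3.58.1 (R 4.3.3) was run on log2(value + 1) of the other 23049 (trend, two-sided, no covariates), with Benjamini-Hochberg adjustment over all of them. The limits are those of the study. Fold changes on this scale understate low genes. Genes were matched to GENCODE M39 on GRCm39. All 10 members are named, and of each list up to 4 called genes per direction, or the largest difference where none was called, and for each member with separate groups the 2 most alike genes. Members and lists were chosen with earlier results of these data known. The script was tested on simulated data. Alternatives were pseudocounts of 0.1 and 5, filters, scalings, voom, a replicate block, other limits and leaving out samples.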

Additional observations from a re-analysis of the deposited data

How the results depend on the processing

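Of the members' own differences, those of Aim2, Ifi204, Zbp1, Trex1, Samhd1, Ifih1, Mavs and Tbk1 kept their sign in every alternative, and those of Cgas and Dhx58 did not. Cgas turned to 0.36 with voom, where the median of all genes was 0.67. Dhx58 turned to -0.11 with the protein-coding sum, with and without the replicate block, to -0.14 without untreated replicate 2 (-0.14 to 0.60 over the 6 fits that leave out 1 sample), and to -0.11 without replicate 2 of either group, an alternative added after seeing the data.

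Members called higher numbered 1 (Tbk1) with a pseudocount of 5, median centring, the protein-coding sum with or without the block, and an adjusted p under 0.05, and 1 to 2 when 1 sample was left out (1 without untreated replicate 3, where Ifih1 was not called). Members called lower numbered 1 (Samhd1) with median centring and with the protein-coding sum with or without the block, 2 (Samhd1 and Trex1) at a log2 limit of 1, and 0 to 1 when 1 sample was left out (1 without untreated replicate 3). Members wholly higher numbered 2 with the protein-coding sum. The members' median difference was 0.61 and 0.15 with pseudocounts of 0.1 and 5, 0.10 with the protein-coding sum, and 0.10 to 0.52 when 1 sample was left out, lowest without untreated replicate 2.

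Pathway genes called higher (4) numbered 8 with a pseudocount of 0.1, 2 with the block and protein-coding sum, 19 with voom, 1 at an adjusted p under 0.05 and 11 at a log2 limit of 1. Those called lower (1) numbered 2 with a pseudocount of 0.1 and with the protein-coding sum with or without the block, 0 with a pseudocount of 5 and with voom, and 3 at a log2 limit of 1. The genes behind the 4 changed too, since Cxcl10 was not called without the filter, without the trend or with the block, which called Irgm1. The causes were not tested.

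With the replicate block alone, 2 members were called higher and 0 lower at the study limits, but Tbk1 was no longer under an adjusted p of 0.05 (limma, 0.0925). Over all genes, 16 were under it with the block, against 424 in the main fit. The labels do not say whether the replicate numbers pair the samples, and the main fit did not pair them. Deviations from the group mean correlated at 0.094, 0.199 and 0.083 between same-numbered samples. Between other samples they correlated at -0.131 to 0.053. Each sample correlated best with its own number, by a small margin for samples 1 and 3 (0.053 and 0.047 across them). Deviations within a group sum to 0, so these correlations depend on one another. Whether the samples are paired was not tested. Adjusted p ranged over the alternatives from 0.0036 to 0.154 for Tbk1, 0.0045 to 0.238 for Ifih1, 0.0202 to 0.227 for Samhd1 and 0.046 to 0.351 for Trex1. Calls over all genes numbered 1552 higher and 177 lower with voom, where the median of all genes was 0.67. With median centring they numbered 310 and 414, and the median of all genes was -0.19. The unknown depth limits the low members Cgas and Mavs most.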
